A study of Rattus norvegicus with 6 samples.

Results

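The genes through which the liver takes up, burns, makes and stores glucose were read from the total RNA of livers of 6 male rats of the Sprague-Dawley strain on 1-colour oligonucleotide arrays, with 1 array per animal, in a study titled as one of chemical effects on gene expression. The set held 31 genes chosen by name from the pathways, with earlier results of these data known. They were 14 genes of glycolysis and sugar entry, 6 of gluconeogenesis, 7 of glycogen and 4 of the insulin signal. Their probes were found through the RefSeq accession that the array files give. All 31 were on the array, among 15284 genes named by a probe, and they had 71 of the 61657 probes other than controls. All 31 were also among the 11434 genes tested, a gene being tested if any 3 or more of its 6 readings on some probe were well above background. The probe used was well above background on all arrays for 30 of them, and for Ppargc1a on 2 corn oil and 3 phenolphthalein arrays. Pyruvate carboxylase, labelled Pcx in older lists, carries the symbol Pc here, and the glucose-6-phosphatase gene G6pc carries the symbol G6pc1.

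Of the animals, 3 received corn oil alone and 3 received daily phenolphthalein, a laboratory indicator with laxative action, at a dose of 1000 mg/kg. The rats were 5 weeks old when bought and ate a basal diet. The labels disagree on how long treatment lasted, since the treatment protocol gives 9 weeks and the design text 28 days, and the feeding state and the hour at which livers were taken are not given in the sources used here. The control arrays shared slide 1 and the treated ones slide 2, with separate scans, so a slide or scan effect and a treatment effect cannot be told apart. The array's 75th percentile of signal was 595 to 636 in corn oil and 551 to 578 with phenolphthalein, without overlap, and every array was scaled to it. On the 6 arrays 62.1% to 65.1% of probes were well above background. Hepatocyte markers were present, with 8 of 8 well above background on all 6 arrays and a median log2 difference of 0.021 between the groups.

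Glucose enters hepatocytes through a facilitative transporter, is trapped by phosphorylation, and is then split in glycolysis, stored as glycogen or released again. Gluconeogenesis runs the path from pyruvate back to glucose by means of enzymes that bypass the irreversible steps of glycolysis. Insulin favours storage and represses the genes of glucose output, in part by keeping the transcription factor FOXO1 out of the nucleus, while glucagon and fasting act the other way.

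No gene of the set passed the test between the groups, and the differences were small for most of them. By limma, with p adjusted by Benjamini-Hochberg across the 11434 genes, 0 of 31 had an adjusted p under 0.05, where 0.0612% of all genes did, and the smallest adjusted p was 0.256. At an unadjusted p under 0.05 there were 2, Pgk1 and Insr, both with a higher mean, against 7.16% of all genes higher and 8.11% lower. All treated animals read above all controls for 4 members, Pfkfb1, Pgk1, Gys2 and Insr, and below them for 0, where 12.2% of all genes were apart upward and 11.0% downward. The share of members apart upward was therefore near that of all genes. For 26 of the 31 the 95% interval of the difference lay within 1 log2 unit of 0, and for 18 within 0.5 log2 units.

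**Figure D1:**
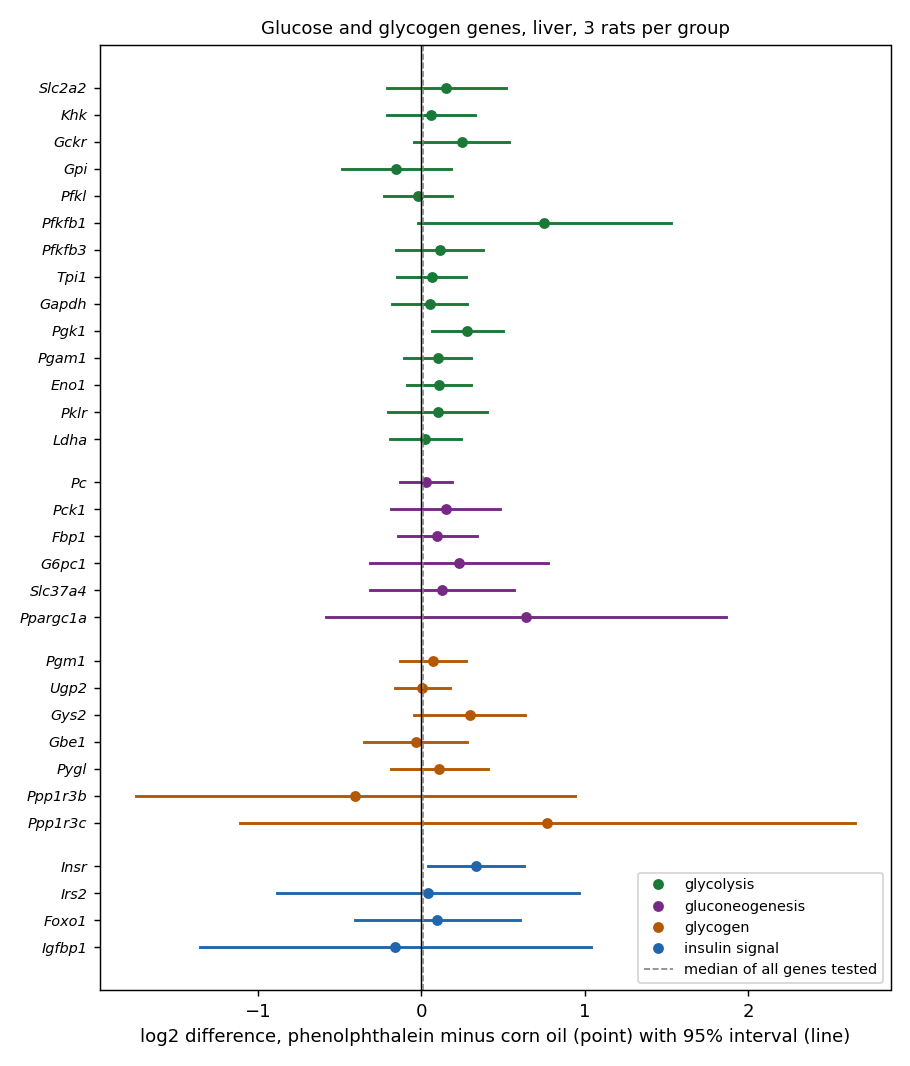
The difference between groups for each of the 31 genes, phenolphthalein minus corn oil on the log2 scale (horizontal axis), with its 95% interval from limma and genes grouped by branch. Only the intervals of Pgk1 and Insr leave out 0, and the widest are those of Ppp1r3c, Ppp1r3b, Ppargc1a and Igfbp1.

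Means were higher with phenolphthalein for 26 of the 31 genes, against 51.8% of all genes tested, and the median log2 difference was 0.10 against 0.0096. Among the branches it was 0.10 for glycolysis, 0.14 for gluconeogenesis, 0.071 for glycogen and 0.070 for the insulin signal. With 1 array left out the glycogen value ran from 0.02, without corn oil animal 1, to 0.1294, without phenolphthalein animal 1, and that of the insulin signal from 0.0318, without corn oil animal 3, to 0.2674, without phenolphthalein animal 3. The share of genes with a higher mean also depended on brightness. Of the members, 23 lay in the brightest of 4 equal groups of the genes tested by mean signal, and in that group 64.5% of all genes had a higher mean, with a median of 0.057, against 21 of these 23 members. In the dimmest group, which held 2 members, 39.3% of all genes had a higher mean and the median was -0.082. Quantile normalization, which gives all arrays the same distribution, brought the medians of the 4 brightness groups to between -0.0001 and 0.0075. It left 20 of 31 members with a higher mean, against 50.7% of all genes, and a median over the members of 0.049. With normexp background correction and quantile normalization the count was 18 of 31, and with the array medians set equal it was 28 of 31, against 66.2% of all genes.

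**Figure D2:**
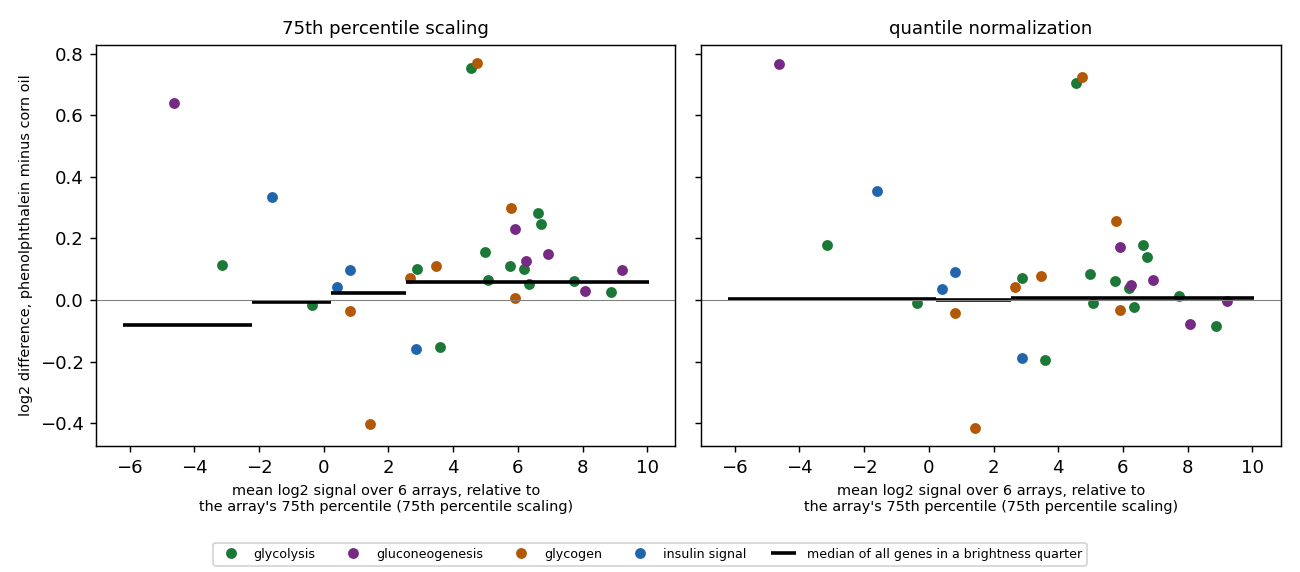
The log2 difference of each of the 31 genes against its mean signal (horizontal axis, log2 relative to the array's 75th percentile), with scaling to the 75th percentile on the left and quantile normalization on the right. Black bars give the median of all genes in each of 4 brightness groups, which climbs from -0.082 to 0.057 on the left and stays near 0 on the right.

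The probes of a gene were compared where it had several. Of the 25 members with over 1 probe past the filter, 15 had all probes on the same side of 0, 13 of them higher and 2 lower. That is 60% of these members, against 64.5% of the other genes with several probes. For the brightest probe of each member the median log2 difference was 0.098, and for the mean of its other probes it was 0.018. Slc2a2, Khk, Pklr, Pc, Fbp1, Ugp2 and Irs2 each had a brightest probe with a positive difference and a negative mean over the others. The 68 member probes past the filter had a median of 0.071, against 0.018 over all 39411 probes. Of them 0 passed limma's adjusted p over probes, where 0.0482% of all probes did, and 4 had an unadjusted p under 0.05, where 13.2% did.

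Sugar entry was measured at a transporter, a kinase and a regulator. Slc2a2, the low-affinity glucose transporter GLUT2, had a log2 signal of 4.93, 4.75 and 5.04 in corn oil animals 1 to 3 and 5.08, 4.81 and 5.29 in phenolphthalein animals 1 to 3, relative to the array's 75th percentile, and values of single animals are given in this order throughout. These ranges overlapped, with a log2 difference of 0.15 ± 0.15 (SE). Gckr, a regulatory protein of liver sugar metabolism, read 6.71, 6.65 and 6.46 in corn oil and 6.89, 6.998 and 6.68 with phenolphthalein. Animal 3 of the treated group lay inside the corn oil range and the other two above it, and the difference was 0.25 ± 0.12 (SE) with a limma adjusted p of 0.382. Khk, ketohexokinase, which phosphorylates fructose, had a difference of 0.062 ± 0.11 (SE).

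Pfkfb1 codes for the liver form of the bifunctional enzyme that makes and breaks down fructose 2,6-bisphosphate, the signal that drives glycolysis and holds back gluconeogenesis. Its log2 signal was 3.44, 4.51 and 4.57 in corn oil and 4.76, 5.004 and 5.01 with phenolphthalein. The groups did not overlap, and corn oil animal 1 lay far below its companions while the treated animals were close together. The log2 difference of 0.75 ± 0.32 (SE) had a 95% interval of -0.023 to 1.53 and a limma adjusted p of 0.335. Without corn oil animal 1 it was 0.38. The second probe gave the same picture, at 3.39, 4.49 and 4.53 in corn oil and 4.78, 4.95 and 5.06 with phenolphthalein. Pfkfb3, the inducible form of the enzyme, had a dim probe and a difference of 0.11 ± 0.11 (SE), and its other probes were well above background on 0 arrays.

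Among the enzymes of the glycolytic chain, Pgk1, phosphoglycerate kinase, came closest to the threshold. It read 6.41, 6.56 and 6.46 in corn oil and 6.65, 6.85 and 6.77 with phenolphthalein, so that all treated animals lay above all controls. The log2 difference was 0.28 ± 0.088 (SE), with an unadjusted limma p of 0.0188 and an adjusted p of 0.256. Its second probe, at 4.54, 4.62 and 4.45 in corn oil and 4.50, 4.79 and 4.68 with phenolphthalein, had overlapping groups and a difference of 0.12. Differences at the neighbouring steps were smaller. Gapdh, glyceraldehyde-3-phosphate dehydrogenase, had a difference of 0.053 ± 0.093 (SE), a 95% interval of -0.18 to 0.28 and 5 probes between -0.042 and 0.06. Tpi1, triosephosphate isomerase, was at 0.063 ± 0.085 (SE), Pgam1, phosphoglycerate mutase, at 0.10 ± 0.083 (SE) and Eno1, enolase, at 0.11 ± 0.08 (SE). Ldha, which interconverts pyruvate and lactate, was at 0.026 ± 0.089 (SE), with a 95% interval of -0.19 to 0.25. Several of these genes have near-identical pseudogene copies, and whether the probes also read those was not tested.

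For Pklr, Pfkl and Gpi the groups overlapped on the probe tested. Pklr, the liver pyruvate kinase that insulin and dietary carbohydrate induce, read 2.63, 2.99 and 2.83 in corn oil and 2.83, 2.86 and 3.06 with phenolphthalein. Its difference was 0.10 ± 0.12 (SE), with a 95% interval of -0.20 to 0.40. Pfkl, the liver phosphofructokinase, had a difference of -0.017 ± 0.085 (SE). Gpi, glucose-6-phosphate isomerase, had the lowest mean difference of this branch at -0.15 ± 0.14 (SE), which rested on phenolphthalein animal 2: the treated values were 3.62, 3.23 and 3.69 against 3.68, 3.62 and 3.69 in corn oil. Without that animal the difference was -0.0097.

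The promoters of hormone-controlled members are shown because the genes behind them varied most between animals or stand for the classical response to insulin and glucagon. The bases are the 250 before the start, 5′ to 3′, from RefSeq's assembly GRCr8, which is not the build on which the array was annotated. Capitals mark matches on either strand to TGTTTTG or TATTTTG, letters of the insulin response sequence that FOXO factors bind, to TGACGT, the core of the cyclic AMP response element (ACGTCA on the other strand), and to CACGTG, an E-box. The table held 27 of the 31 members.
Igfbp1 (chr14:86261027-86261276, plus strand): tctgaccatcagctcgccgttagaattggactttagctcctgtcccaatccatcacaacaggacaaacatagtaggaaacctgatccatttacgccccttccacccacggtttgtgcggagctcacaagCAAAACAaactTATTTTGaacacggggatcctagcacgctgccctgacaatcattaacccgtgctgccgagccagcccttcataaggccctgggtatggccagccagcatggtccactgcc
G6pc1 (chr10:86807409-86807658, plus strand): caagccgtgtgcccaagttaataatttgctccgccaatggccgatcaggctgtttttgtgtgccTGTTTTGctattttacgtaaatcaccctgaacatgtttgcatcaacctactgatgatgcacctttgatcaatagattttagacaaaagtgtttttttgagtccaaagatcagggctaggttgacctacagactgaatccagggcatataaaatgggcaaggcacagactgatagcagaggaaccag
Pck1 (chr3:182348322-182348571, plus strand): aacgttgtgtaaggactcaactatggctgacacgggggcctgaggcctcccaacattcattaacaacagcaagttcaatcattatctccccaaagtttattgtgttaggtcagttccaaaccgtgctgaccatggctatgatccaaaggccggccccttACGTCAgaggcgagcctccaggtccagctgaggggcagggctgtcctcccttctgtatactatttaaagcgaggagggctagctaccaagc
Ppp1r3c (chr1:243878528-243878777, minus strand): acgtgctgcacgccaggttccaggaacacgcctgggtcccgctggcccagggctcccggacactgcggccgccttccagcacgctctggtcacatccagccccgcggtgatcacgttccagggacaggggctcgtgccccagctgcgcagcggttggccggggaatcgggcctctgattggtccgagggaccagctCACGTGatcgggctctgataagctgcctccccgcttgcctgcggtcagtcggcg
In Igfbp1 the capitals hold CAAAACA, the reverse complement of TGTTTTG, from -121 and TATTTTG from -110. In G6pc1 TGTTTTG begins at -186, in Pck1 ACGTCA at -91 and in Ppp1r3c CACGTG at -54. TGTTTTG was in 2 of the 27 member promoters and in 5.46% of the 33469 promoters in the table, and TATTTTG in 1 and 4.46%. TGACGT was in 5 members, Ldha, Pck1, Ppargc1a, Slc37a4 and Tpi1, and in 6.95% of all, and CACGTG in 3, Ldha, Pfkfb3 and Ppp1r3c, and in 5.59%. A match describes the letters in this window and no more.

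In gluconeogenesis the groups overlapped on the probe tested for all 6 genes. Pck1, the phosphoenolpyruvate carboxykinase whose transcript follows glucagon and insulin, read 7.09, 6.64 and 6.89 in corn oil and 6.998, 7.15 and 6.92 with phenolphthalein. The ranges overlapped, with a log2 difference of 0.15 ± 0.14 (SE) and a 95% interval of -0.18 to 0.48. Its second probe had a difference of 0.0011. G6pc1, the glucose-6-phosphatase that makes free glucose, read 5.75, 5.997 and 5.60 in corn oil and 5.55, 6.30 and 6.19 with phenolphthalein. Phenolphthalein animal 1 was the lowest of all 6 and the other two treated animals the highest, and the difference was 0.23 ± 0.22 (SE). The second probe kept that order among the treated animals, at 2.08, 3.04 and 2.76.

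Pc, pyruvate carboxylase, had the smallest spread of the set, with a log2 signal of 8.07, 8.02 and 8.04 in corn oil and 8.07, 8.06 and 8.10 with phenolphthalein, and a difference of 0.03 ± 0.066 (SE). Its pooled SD within groups was 0.021, and 0.21% of all genes tested had an SD as small or smaller. Its dimmer probe read 6.17, 6.23 and 6.24 in corn oil and 6.01, 6.10 and 6.04 with phenolphthalein, lower in all treated animals, so its probes disagreed in direction. Fbp1, fructose-1,6-bisphosphatase, had a difference of 0.098 ± 0.098 (SE). Slc37a4, which carries glucose 6-phosphate into the endoplasmic reticulum, was tight among treated animals, at 6.33, 6.33 and 6.30, and spread in corn oil, at 5.81, 6.27 and 6.51, where animal 1 was lowest. Ppargc1a, the coactivator PGC-1 alpha that fasting induces in liver, had a dim probe. It read -5.22, -4.001 and -5.61 in corn oil and -3.66, -4.90 and -4.35 with phenolphthalein, with overlapping groups and a difference of 0.64 ± 0.50 (SE).

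Among the enzymes of glycogen metabolism only Gys2 had groups apart on the probe tested. Gys2, the liver glycogen synthase, read 5.63, 5.57 and 5.75 in corn oil and 5.82, 5.80 and 6.23 with phenolphthalein. All treated animals lay above all controls, and animal 3 stood out among the treated. The log2 difference of 0.30 ± 0.14 (SE) had a limma adjusted p of 0.372. It was 0.16 without phenolphthalein animal 3, and the second probe, at 2.74, 2.61 and 2.76 in corn oil and 2.54, 2.56 and 3.07 with phenolphthalein, overlapped with a difference of 0.018. Pygl, the liver phosphorylase that breaks glycogen down, had a difference of 0.11 ± 0.12 (SE), with a 95% interval of -0.18 to 0.41. Pgm1, phosphoglucomutase, was at 0.071 ± 0.082 (SE), Ugp2, which makes UDP-glucose, at 0.0057 ± 0.069 (SE) and Gbe1, the branching enzyme, at -0.034 ± 0.13 (SE). The pooled SD of Ugp2 within groups was 0.036 on the probe tested. Its second probe was lower in all treated animals, at 3.60, 3.62 and 3.54 in corn oil and 3.42, 3.41 and 3.44 with phenolphthalein. The difference on that probe was -0.17, and the third probe overlapped with -0.047.

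The regulators of glycogen behaved otherwise, with large differences between animals of the same group. Ppp1r3c codes for PTG, a subunit that brings protein phosphatase 1 to glycogen and so activates synthesis. Its log2 signal was 3.25, 4.99 and 4.85 in corn oil and 5.60, 6.13 and 3.67 with phenolphthalein. Corn oil animal 1 and phenolphthalein animal 3 were low and the others high, a range of 3.35-fold within corn oil and 5.48-fold within phenolphthalein. The mean difference of 0.77 ± 0.77 (SE) was smaller than that spread, with a 95% interval of -1.11 to 2.65. Both dimmer probes repeated the order, at -1.71, -0.061 and -0.20 in corn oil and 0.52, 1.22 and -1.15 with phenolphthalein for the second and -2.90, -1.62 and -1.87 in corn oil and -1.42, -0.68 and -2.74 with phenolphthalein for the third.

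Ppp1r3b, the hepatic glycogen-targeting subunit GL of the same phosphatase, which insulin induces, varied in much the same animals. It read 0.77, 1.96 and 2.18 in corn oil and 0.88, 2.22 and 0.60 with phenolphthalein. On the second probe corn oil animal 1 and phenolphthalein animal 3 were again the lowest, at -2.35, -1.098 and -1.27 in corn oil and -1.01, -0.87 and -2.59 with phenolphthalein, while phenolphthalein animal 1 was low on the brightest probe alone. The difference between groups was -0.40 ± 0.55 (SE), with a 95% interval of -1.75 to 0.94.

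Of the insulin signal, the receptor gene Insr came nearest to a difference. It read -1.59, -1.89 and -1.80 in corn oil and -1.57, -1.27 and -1.43 with phenolphthalein. The groups were apart by a narrow margin, and the log2 difference was 0.33 ± 0.12 (SE), with an unadjusted limma p of 0.0321 and an adjusted p of 0.289. The second probe was also apart, at -1.95, -1.995 and -2.05 in corn oil and -1.78, -1.72 and -1.72 with phenolphthalein, with a difference of 0.25, and the third overlapped with 0.092.

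Downstream of the receptor, single animals stood apart within their groups. Irs2, the adaptor that fasting raises and insulin represses, read 0.94, 0.11 and 0.086 in corn oil and 0.17, -0.026 and 1.12 with phenolphthalein. Corn oil animal 1 and phenolphthalein animal 3 were high and the others near 0, with a difference between groups of 0.042 ± 0.38 (SE). The much dimmer second probe of Irs2 did not have this order, at -3.63, -3.64 and -3.53 in corn oil and -4.11, -3.75 and -3.68 with phenolphthalein. On the third, phenolphthalein animal 1 was highest of the treated, at -4.45, -4.56 and -5.57 in corn oil and -4.53, -5.10 and -4.63 with phenolphthalein. The fourth, which did not pass the filter, kept the order, at -4.45, -5.84 and -5.45 in corn oil and -5.69, -5.62 and -4.64 with phenolphthalein. Foxo1, the transcription factor that insulin holds in check, read 0.47, 0.90 and 0.90 in corn oil and 0.99, 1.0997 and 0.48 with phenolphthalein, with the same pair of animals lowest, and its difference was 0.098 ± 0.21 (SE). Igfbp1, a secreted binding protein whose gene insulin represses through FOXO sites in its promoter, read 3.39, 3.18 and 2.27 in corn oil and 3.63, 2.75 and 1.97 with phenolphthalein. There animal 1 was highest and animal 3 lowest in each group, and the difference was -0.16 ± 0.49 (SE), with a 95% interval of -1.35 to 1.04.

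**Figure D3:**
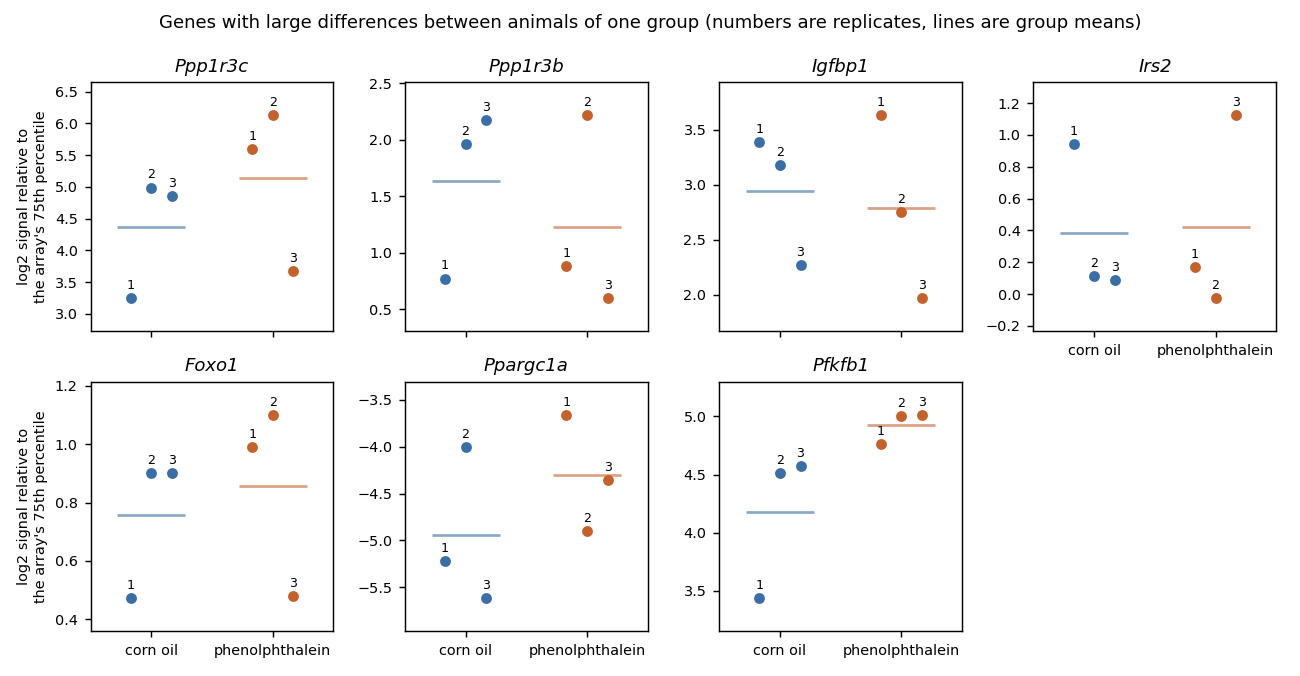
The log2 signal of 7 genes in each animal (vertical axis, relative to the array's 75th percentile), with replicate numbers beside the points and lines at group means. Corn oil animal 1 and phenolphthalein animal 3 are the lowest of their groups for Ppp1r3c, Ppp1r3b and Foxo1 and the highest for Irs2, and Pfkfb1 alone has groups that do not overlap.

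Across the set the spread between animals was larger than the difference between treatments for most genes. The pooled SD within groups exceeded the size of the log2 difference for 23 of 31 members. The same share over all genes was not computed, so this count does not set the members apart from other genes. The median SD of the members was 0.15, as for all genes tested, but it ran from 0.021 for Pc to 1.14 for Ppp1r3c. With Ppp1r3b at 0.81, Ppargc1a at 0.74 and Igfbp1 at 0.72, 4 members lay in the top 5% of all genes by that SD, and with Irs2 and Pfkfb1 6 lay in the top 10%. Ppargc1a was read on a dim probe, well above background on 2 of 3 corn oil arrays. How much of its SD reflects differences between animals was not tested. Among the 14 genes of glycolysis and sugar entry the largest SD was 0.46, for Pfkfb1. In gluconeogenesis only Ppargc1a was above that, and G6pc1 was next at 0.32. In a list of other genes of glycolysis and gluconeogenesis, described below, 2 of the 37 tested lay in the top 5%.

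**Figure D4:**
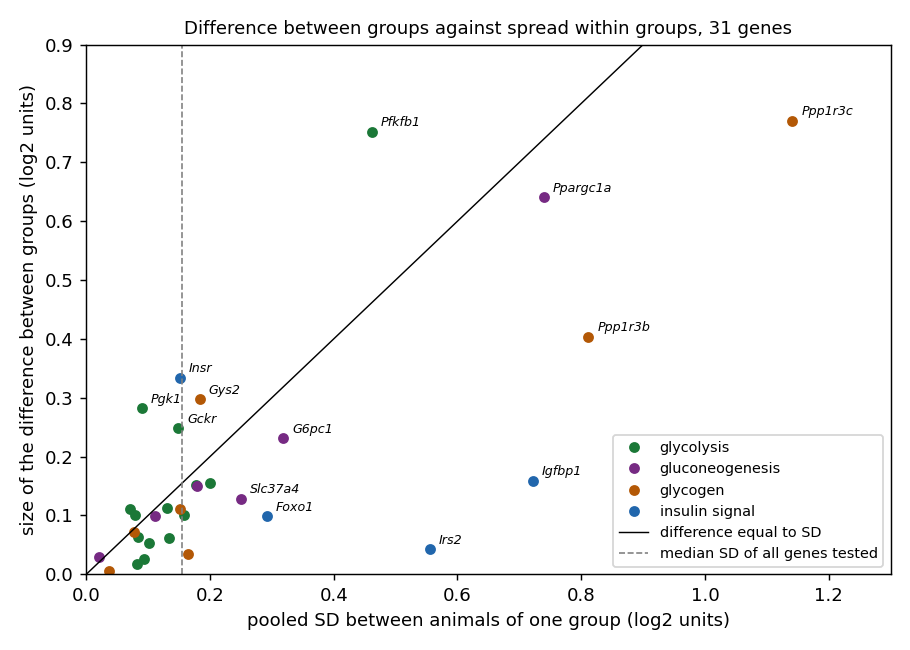
Size of the difference between groups (vertical axis, log2 units) against the pooled SD between animals of a group (horizontal axis, log2 units) for 31 genes. Of them 23 lie below the line where both are equal, and Ppp1r3c, at an SD of 1.14, lies farthest to the right.

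Pdk4, which fasting induces and which holds back pyruvate oxidation, is not 1 of the 31 genes but belongs to a list of other genes of glycolysis and gluconeogenesis, and it was picked out after its values were seen. It was highest in corn oil animal 1 and phenolphthalein animal 3, at 0.16, -1.54 and -0.86 in corn oil and -0.90, -0.28 and -0.041 with phenolphthalein, and its difference between groups was 0.34 ± 0.46 (SE). In these 2 animals Ppp1r3c was low within its group, and Pdk4 and the brightest probe of Irs2 were high. Igfbp1, Pck1 and Ppargc1a did not follow Irs2 in both. Igfbp1 and Pck1 were the highest of their group in corn oil animal 1, at 3.39 and 7.09. In phenolphthalein animal 3 they were the lowest of the treated, at 1.97 and 6.92. Ppargc1a was the middle value of its group in both animals, at -5.22 and -4.35.

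The other genes of the pathways were read from lists of 40 genes of glycolysis and gluconeogenesis, 26 of glycogen, 37 of insulin and glucagon signalling and 8 of the pentose phosphate path. By limma's adjusted p, 0 of their 37, 19, 34 and 7 tested members passed. In the glycolysis list 8 of 37 had an unadjusted p under 0.05 with a lower mean and 2 with a higher one, against 8.11% and 7.16% of all genes. The groups were apart downward for 8 and upward for 5, against 11.0% and 12.2%. Without 1 array the count of lower genes was 6 to 8. The median over the list was 0.017.

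Ldhb, the heart form of lactate dehydrogenase, had the largest difference, at 0.74, 0.59 and 0.51 in corn oil and -0.029, -0.93 and -0.70 with phenolphthalein, lower in all treated animals (-1.16 ± 0.24 (SE), limma adjusted p of 0.172). Eno2, the neuronal enolase, read -1.51, -1.29 and -1.25 in corn oil and -1.87, -1.91 and -1.79 with phenolphthalein (-0.51 ± 0.096 (SE), limma adjusted p of 0.158). Hk2, the hexokinase of muscle and fat, had a dim probe, which read -4.06, -3.98 and -3.58 in corn oil and -4.67, -4.50 and -4.48 with phenolphthalein (-0.68 ± 0.15 (SE)). The others, named after their values were seen, were Hk3, a hexokinase of leukocytes, at -0.87 ± 0.19 (SE), Pkm, the pyruvate kinase of most cells other than hepatocytes, at -0.37 ± 0.094 (SE), Pfkp, the platelet phosphofructokinase, at -0.47 ± 0.13 (SE), Hk1, the hexokinase of most tissues, at -0.27 ± 0.10 (SE) and Pdk2, a pyruvate dehydrogenase kinase, at -0.50 ± 0.16 (SE). Ldhb, Eno2, Hk2 and Hk3 were each read on only 1 probe past the filter. The 2 genes of the list with an unadjusted p under 0.05 and a higher mean were Slc2a1, the transporter GLUT1, at 0.47 ± 0.17 (SE) and the brain aldolase Aldoc at 0.37 ± 0.15 (SE). Their groups overlapped for Aldoc and were apart for Slc2a1. Other isozymes of this list, also named after their values were seen, did not pass an unadjusted p of 0.05: Pfkm, the muscle phosphofructokinase, had a difference of 0.42 ± 0.27 (SE), Eno3, the muscle enolase, of 0.078 ± 0.095 (SE) and Aldoa, the muscle aldolase, of -0.051 ± 0.12 (SE).

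Markers of resident macrophages and lymphocytes had lower means on the same arrays. All 11 measured markers of Kupffer cells and macrophages had a lower mean with phenolphthalein, with a median log2 difference of -0.63, 10 of them with an unadjusted p under 0.05, against 8.11% of all genes lower at that level, and 0 past limma's adjusted threshold. All 11 were well above background on every array, and Timd4 had no probe matched by name. Their summed signal was 191 to 273 in corn oil and 141 to 186 with phenolphthalein, in units of the array's 75th percentile. The ranges were apart by a narrow margin, with corn oil animal 3 at 191 and phenolphthalein animal 3 at 186. Marker by marker the groups were apart downward for 7 of the 11, against 11.0% of all genes, and overlapped for the rest. The median ran from -0.79 to -0.50 with 1 array left out, and the count with an unadjusted p under 0.05 was 5 without corn oil animal 1 or 2 or phenolphthalein animal 1 or 2, and 6 with array medians set equal. Marco, a scavenger receptor, had a difference of -1.45 ± 0.28 (SE) and Cd163, another, of -0.63 ± 0.15 (SE). Of the lymphocyte markers, Cd2 and Cd3e did not pass the filter and Cd79a and Ms4a1 had no probe matched by name. The 8 tested had a median of -0.46, all of them lower, 5 with an unadjusted p under 0.05, and a summed signal of 4.05 to 4.61 in corn oil and 2.76 to 3.26 with phenolphthalein, with Ptprc, the leukocyte antigen CD45, at -0.59 ± 0.11 (SE). The count of 5 was 3 without corn oil animal 1 or phenolphthalein animal 2 and 3 with array medians set equal, against the same 8.11% of all genes. In bulk liver RNA fewer cells of a type and less RNA per cell cannot be told apart. The part of these markers in the lower signals of the 8 glycolysis genes was not tested. The other marker lists were small and their medians moved with single arrays. With 1 array left out the median ran from -0.1224 to -0.0271 around -0.077 for 5 markers of sinusoidal endothelium, and was 0.0018 with array medians set equal. It ran from -0.3237 to -0.1371 around -0.19 for 8 of stellate cells, from 0.0987 to 0.3386 around 0.29 for 5 of bile duct cells, from -0.3506 to -0.0602 around -0.24 for 4 of erythroid cells and from 0.3177 to 0.7724 around 0.51 for 3 of neutrophils, which with no filter on dim probes had -0.086 over 5. The 3 neutrophil markers differed in direction. Of them 2 had a higher mean and 1, Camp, was lower in all treated animals, at -0.39 ± 0.094 (SE). For 2 markers of pancreas, 2 of fat and 3 of skeletal muscle the median ran from -0.3401 to 0.0372, -0.3451 to 0.0915 and -0.2763 to -0.0032, around -0.18, -0.18 and -0.13.

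**Figure D5:**
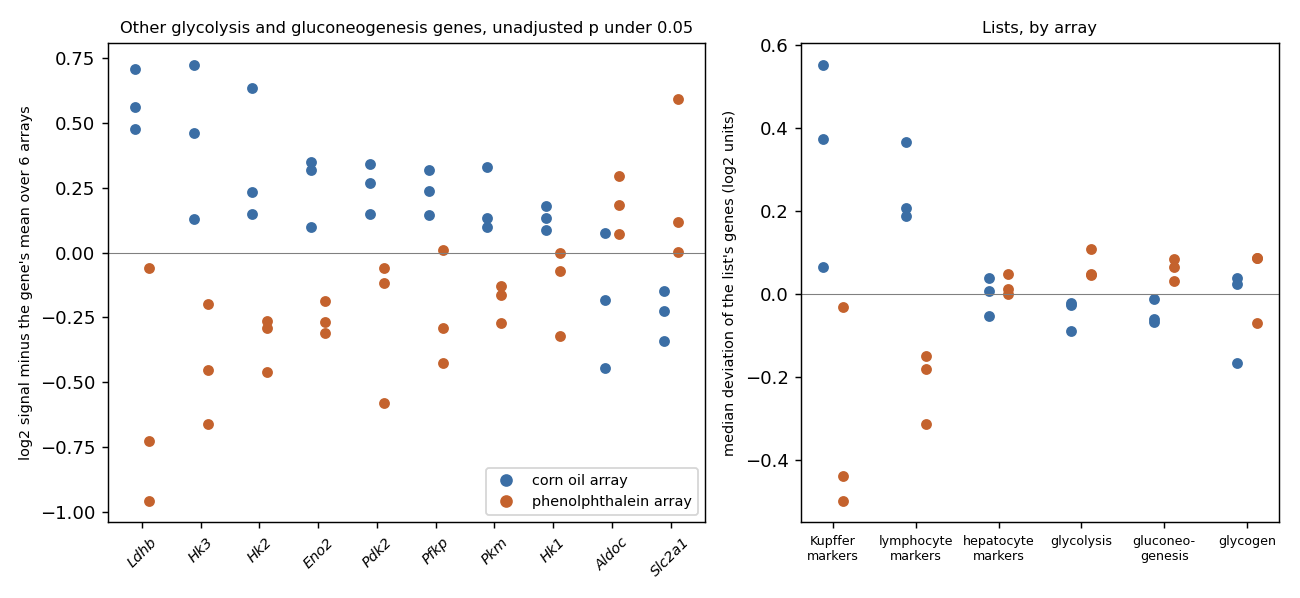
Left, log2 signal of 10 other glycolysis and gluconeogenesis genes with an unadjusted p under 0.05, as the deviation from the gene's mean over 6 arrays (vertical axis), 1 point per array. Right, the median deviation of the genes in each list by array: Kupffer and lymphocyte markers are lower on the phenolphthalein arrays, with medians of -0.63 and -0.46 for the difference. Hepatocyte markers lie near 0. Glycolysis is at -0.091 to -0.022 in corn oil and 0.044 to 0.11 with phenolphthalein, and gluconeogenesis at -0.07 to -0.014 and 0.031 to 0.083. Glycogen overlaps between the groups and is lowest in corn oil animal 1, at -0.17.

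Of the remaining lists, glycogen genes had 2 of 19 with an unadjusted p under 0.05, both higher, against 7.16% of all genes higher and 8.11% lower. The count was 1 without corn oil animal 1 or 3 or phenolphthalein animal 2, and 3 higher and 2 lower without phenolphthalein animal 3. Phkb, a subunit of phosphorylase kinase, read 0.039, 0.23 and 0.071 in corn oil and 0.45, 0.37 and 0.30 with phenolphthalein (0.26 ± 0.089 (SE)). The third by rank was Pygb, the brain phosphorylase, at -0.27 ± 0.14 (SE). The median of that list was -0.012, and from -0.0343 to 0.0236 with 1 array left out. Insulin and glucagon signal genes had 4 of 34, all higher, against the same 7.16%, and a median of 0.10. Sesn3, a FOXO target, was at 0.52 ± 0.18 (SE), Trib1, a pseudokinase, at 0.39 ± 0.15 (SE) and Pdpk1, the kinase that activates AKT, at 0.20 ± 0.079 (SE). That count was 0 without phenolphthalein animal 2 and 1 without corn oil animal 1 or 3. Of 7 pentose phosphate genes, with a median of -0.025 that ran from -0.0525 to 0.065 with 1 array left out, 1 was higher and 1 lower at that level, against the same shares of all genes. Tkt, transketolase, read 6.80, 6.91 and 6.80 in corn oil and 7.23, 7.12 and 7.10 with phenolphthalein (0.31 ± 0.079 (SE)), higher in all treated animals. Taldo1, transaldolase, was at 0.25 ± 0.10 (SE).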

How the data were processed

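Total liver RNA of 6 rats was labelled with 1 dye and hybridised to 1 array each. The deposited intensity values are processed signals, background-subtracted by Agilent Feature Extraction 10.7.1.1 per the file headers, in arbitrary units. The log2 of each intensity, minus the log2 of the array's 75th percentile, was computed here, with no pseudocount, as was every p-value. Spots marked as outliers were set missing. Probes were named through RefSeq accessions, and where a gene had several past the filter (well above background on 3 of 6 arrays) the brightest was tested. Groups of 3 were compared with limma 3.58.1 in R 4.3.3, adjusted over 11434 genes, or over 39411 probes. Precision is limited by the number of arrays.

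All 31 members are named. Of each other list the 3 genes with the smallest p are named, and of the cell type lists 2 at most, and others are marked as chosen after their values were seen. A few genes of these lists are not reported here, though they stay in the counts. Members and lists were chosen with earlier results of these data known. Animals were not paired by replicate number in the reported analysis. The correlations of same-numbered deviations were -0.025, 0.017 and -0.0035, which cannot show how animals were allocated or processed. Other normalizations, background correction, filters, probe rules and each array left out were tried, together with the authors' deposited value table, which is the processed signal divided by 1 factor per array. That factor was 0.9999 to 1.001 times the array's 75th percentile. The run on the deposited values therefore repeats the reported scaling and is no separate check. Tested on simulated data with 200 of 11426 genes changed, this comparison recovered 69.5% at a log2 change of 1 and 88.2% at 2. Changes under 1 were not simulated, while the largest member difference was 0.77. The recovery at the sizes seen among the members is therefore not known. Promoter sequences are RefSeq's, and no array coordinates are given.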

Additional observations from a re-analysis of the deposited data

How the results depend on the processing

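No member passed the adjusted threshold of limma under any alternative run, with 2 members at an unadjusted p under 0.05 in the reported analysis and 0 to 5 under the alternatives. Means were higher for 18 to 28 of the 31 members. With array medians set equal the median difference was 0.1789 over all members, 0.1796 for glycolysis and 0.2178 for gluconeogenesis, where the median of all genes moved to 0.0885. With quantile normalization these were 0.0487, 0.0512 and 0.0571, and with normexp and quantile normalization 0.0386 over all members and 0.0370 for gluconeogenesis. Averaging over the probes of each gene, glycolysis had 0.0586. With 1 array left out glycolysis ran from 0.0438, without corn oil animal 1, to 0.1227, and gluconeogenesis from 0.0914, without phenolphthalein animal 2, to 0.192, without corn oil animal 1. Glycogen ran from 0.02 to 0.1294 and the insulin signal from 0.0318 to 0.2674. The replicate number as a block (replicate block) left 0 members and 0 of all genes called, against 0 and 7 without it, and 4 members at an unadjusted p under 0.05.

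Differences near 0 changed sign, and the cause was not tested. With array medians equal Pfkl was 0.0615 and Gbe1 0.0446. With quantile normalization Tpi1 was -0.0101, Gapdh -0.0218, Ldha -0.0832, Pc -0.0778, Fbp1 -0.0026 and Ugp2 -0.0333. With normexp and quantile normalization Tpi1 was -0.0407, Gapdh -0.0914, Pgam1 -0.0248, Ldha -0.0498, Fbp1 -0.1004, Ugp2 -0.0968 and Irs2 -0.0062. Averaging over the probes of each gene, Slc2a2 was -0.0292, Khk -0.0208, Pc -0.0659, Ugp2 -0.0694, Gbe1 0.0214 and Irs2 -0.0348. With 1 array left out Khk ran from -3.9e-05 to 0.154, Pfkl from -0.0679 to 0.0235, Ldha from -0.015 to 0.0921, Slc37a4 from -0.0643 to 0.2837, Ugp2 from -0.0215 to 0.02, Gbe1 from -0.1009 to 0.0828, Irs2 from -0.3079 to 0.324, Foxo1 from -0.0441 to 0.2867 and Igfbp1 from -0.5823 to 0.248. With 1 array left out the count of all genes called was 0, 1 and 0 for corn oil animals 1 to 3 and 0, 1 and 6 for phenolphthalein animals 1 to 3. Signal over background limited Ppargc1a, the 1 member not well above it on every array.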
